A study of Mus musculus with 5 samples.

Results

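The enzymes that attach ubiquitin to proteins and remove it were followed in the liver of eyeless mice, which carry 2 mutant (eyl) copies of Pitx3. This gene encodes a transcription factor needed by the eye lens and by dopamine neurons of the midbrain. The family was taken by name from the platform's annotation: every probe whose gene symbol begins with Ube2, Ube3, Ube4, Rnf or Usp, and Uba1. This gave 149 probes of 100 genes, out of 20355 probes and 9930 named genes on the array. E2 conjugating enzymes (Ube2) made up 33 probes of 21 genes. Ligases (Rnf, Ube3 and Ube4) made up 65 probes of 48 genes, and deubiquitinases (Usp) 51 probes of 31 genes. The number of probes named Uba1 was 0, so the ubiquitin activating enzyme itself was not analysed here.

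Each of 5 arrays carried liver RNA of 1 male mouse, aged 17 weeks and labelled Pitx3eyl-/-, beside a pool of wild-type RNA that all 5 arrays shared. Cy5 marked the mutant RNA on replicates 1, 2 and 4, and Cy3 marked it on the swapped arrays, replicates 3 and 5. The sample labels count 4 wild-type mice in the pool, whereas the labelling protocol counts 6. With no wild-type animal on an array of its own, the pool is 1 control sample, and the spread between wild-type animals is in none of the errors below. Values are log2 ratios of mutant to pool, a direction that is likely and not known for certain. A value of 1 stands for 2-fold more RNA in the mutant. Fewer cells of a type and less RNA per cell cannot be told apart in such whole-organ samples.

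Ubiquitin is a small protein that marks others for the proteasome, for transport or for a change in partners. An E1 enzyme activates it, an E2 enzyme carries it on a cysteine, and a ligase brings the E2 to the substrate. HECT ligases (Ube3) take the ubiquitin over onto themselves, RING ligases (most Rnf proteins) hand it on directly, and RING-between-RING ligases combine both steps. Ubiquitin-specific proteases (Usp) cut it off again. In liver the system sets the lifetime of sterol-regulated and secretory pathway proteins of the endoplasmic reticulum, among many others.

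About as many of the family's spots gave a value as of the array at large. Of the 149 probes, 48 (32.2%) had a value on all 5 arrays, against 31.3% of all probes, and 38 had a value on 4. E2 probes were measured on all 5 arrays in 13 of 33 cases (39.4%), ligase probes in 19 of 65 (29.2%) and deubiquitinase probes in 16 of 51 (31.4%). A further 3 probes, of Ube2d1, Ube2h and Rnf149, had a value on 0 arrays. Values at simple ratios of whole numbers up to 20, a form seen across these arrays, made up 23.5% of the family's values and 24.2% of all values. Cell type markers were checked by whether their probes gave a value, since ratios carry no level. Of the 11 probes of hepatocyte markers such as Alb and Ttr, 8 (72.7%) did so on all 5 arrays. The share was 63.6% of 11 erythroid, 55.6% of 9 stellate, 50% of 6 macrophage and 50% of 4 pancreas marker probes. It was 37.5% of 8 lymphocyte, 22.2% of 9 endothelial and 14.3% of 7 bile duct marker probes. The erythroid probes on all 5 arrays include repeats of Hba-a1, and the stellate ones repeats of Col1a2. With sets this small, detection does not single out hepatocytes.

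On single arrays the 3 enzyme classes lay near 0, and none kept a side. The median log2 ratio of the E2 enzymes was -0.12, 0.01, -0.28, -0.16 and -0.10 on replicates 1 to 5. That of the ligases was -0.37, -0.30, -0.01, 0.03 and 0.48, and that of the deubiquitinases -0.08, -0.04, -0.08, 0.29 and 0.15. The medians of all probes were -0.19, -0.04, -0.00, 0.11 and 0.23. E2 medians thus sat below 0 on 4 of 5 arrays, and those of the ligases and of the deubiquitinases each on 3 of 5. Against the median of all probes on the same array the order differed. E2 medians were lower on 3 of 5 arrays, ligase medians on 4 and deubiquitinase medians on 3. The share of ligase probes above 0 ran from 36.5% on replicate 1 to 70.0% on replicate 5, where 60.6% of all probes lay above 0.

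**Figure D1:**
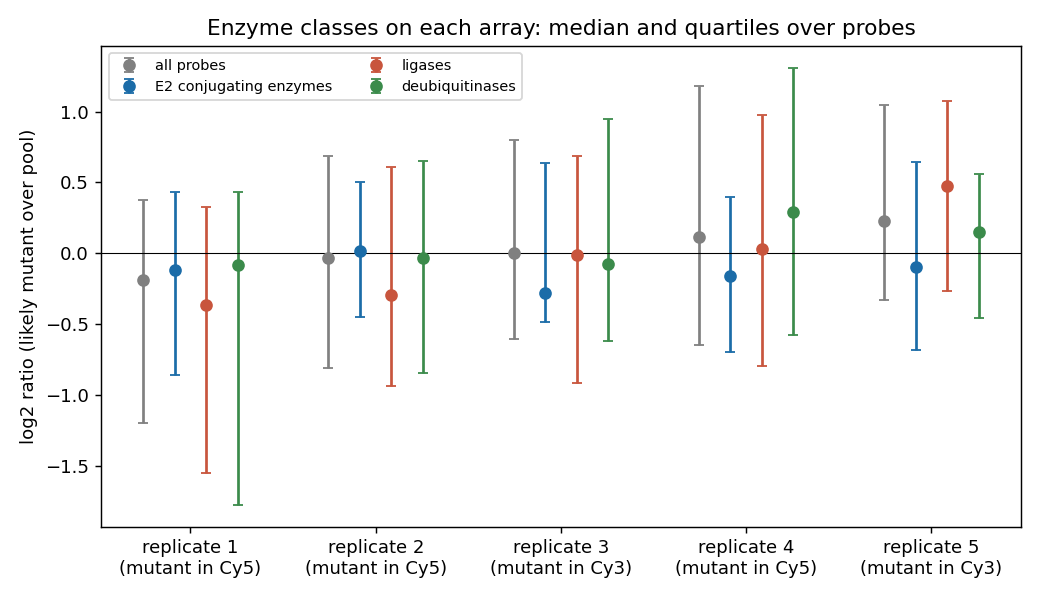
Log2 ratios (likely mutant over pool) of all probes, E2 conjugating enzymes, ligases and deubiquitinases on each of the 5 arrays; points are medians over the measured probes and bars run from the lower to the upper quartile. The quartile bars of the classes overlap on every array, and the ligase median moves from -0.37 on replicate 1 to 0.48 on replicate 5.

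The order of the classes changed between arrays. E2 minus ligases was 0.25, 0.31, -0.27, -0.19 and -0.57 on replicates 1 to 5, with a mean of -0.09 ± 0.37 (SD, n = 5). The sign of that mean turned without replicate 5, at 0.026, and with members measured on all 5 arrays only, also at 0.026. E2 minus deubiquitinases was below 0 on 4 of 5 arrays, with a mean of -0.18 ± 0.20, and ligases minus deubiquitinases on 3 of 5, with a mean of -0.08 ± 0.27. With 1 array left out, the mean of E2 minus deubiquitinases ran from -0.235 to -0.11. That of ligases minus deubiquitinases ran from -0.19 to -0.034. Each mean difference was smaller than its SD over the arrays, and no test was run, since the members were chosen with earlier results known. Spread within a class was far wider than the distance between classes. On replicate 1, 50.0% of the ligase values, 26.1% of the E2 values and 42.5% of the deubiquitinase values were over 2-fold away from 0, beside 36.3% of all values. On replicate 3 the shares were 46.0%, 45.5% and 44.4%, beside 38.5%, and on replicate 4 they were 42.2%, 37.0% and 45.7%, beside 45.9%. Replicates 2 and 5 gave 40.9%, 20.8% and 37.1% beside 40.2%, and 40.0%, 37.5% and 37.8% beside 37.3%.

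No member differed from the pool after correction over the whole array. limma fitted a mutant coefficient, which weights both dye orientations equally, and a dye coefficient to 11300 probes, those that had 4 or 5 values covering both dye orientations. In the family, 86 probes of 63 genes were fitted. The other 63 probes had too few values, and 37 genes, among them Usp1, Usp9x, Usp22, Usp25, Ube2a, Ube2g2, Ube2j2 and Rnf168, had 0 fitted probes. In 12 of the 86, 1 array alone had the mutant in Cy3. The limma adjusted p was 0.999 for each of the 86, and 0 were called, as were 0 of all 11300 (0%). Of the 86, 44 coefficients lay above and 42 below 0, with a median of 0.04, equal to the 0.04 of all probes fitted. By class, 7 of 19 E2 probes, 21 of 40 ligase probes and 16 of 27 deubiquitinase probes lay above 0, against 53.9% of all probes. The class medians of the coefficient were -0.07, 0.04 and 0.10. Without replicate 4 the E2 median was 0.09. Coefficients over 1 in size were found for 18 of the 86 probes (20.9%), beside 13.2% of all probes fitted.

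At an unadjusted p under 0.05, the family held 6 of 86 probes, or 6.98%, where the whole array held 4.16%. Of these, 5 lay on the lower side (Ube2l3, Ube2w, Rnf167, Rnf146 and Usp47), where the array-wide share was 1.81%. Usp37 alone lay on the higher side, with an array-wide share of 2.35%. These counts moved with the arrays used. Without replicate 2, 9 of 104 fitted member probes were lower and 2 higher. Without replicate 3, 1 of 95 was lower and 5 were higher. Those fits needed values on at least 3 arrays, and array-wide shares were not counted for them. Replicate 3 held the lowest value of 4 of the 5 lower probes. For Ube2w and Rnf167 it was also the only array with the mutant in Cy3, so that it carried that orientation alone. The sign was the same on every measured array for 3 of the 6, Rnf146, Usp47 and Usp37.

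**Figure D2:**
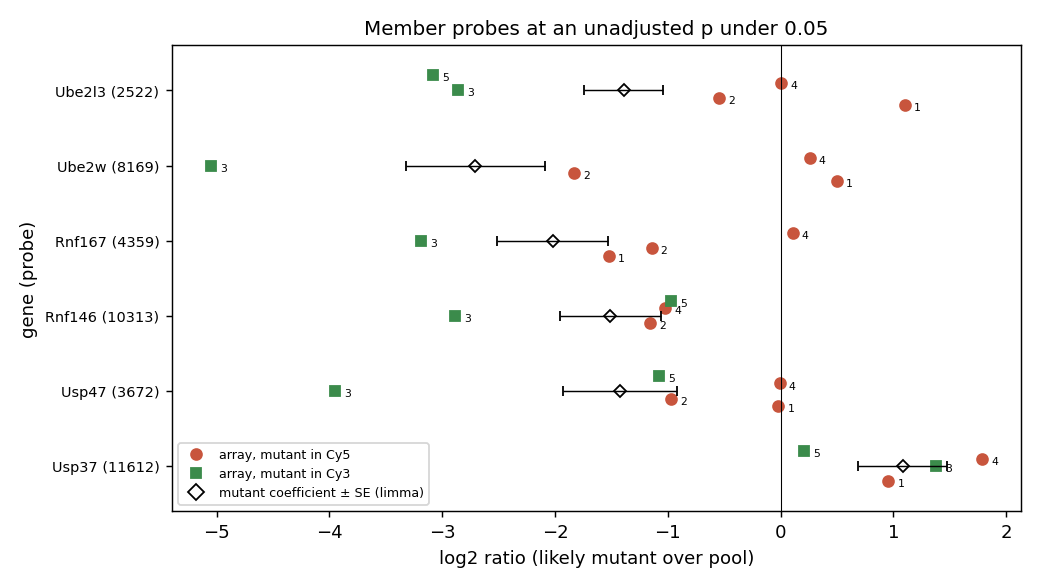
Log2 ratios (likely mutant over pool) on each array for the 6 member probes with an unadjusted limma p under 0.05; circles are arrays with the mutant in Cy5, squares arrays with the mutant in Cy3, small digits the replicate, and diamonds the mutant coefficient with its SE. Replicate 3 is the lowest point for Ube2w, Rnf167, Rnf146 and Usp47, at -5.05, -3.19, -2.88 and -3.95.

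Among the E2 enzymes, Ube2l3 had the lowest p of the family. It encodes the E2 that serves HECT and RING-between-RING ligases, and it was represented by 4 probes (18390, 9162, 18861 and 2522, as numbered in the value table). Probe 2522 read 1.10, -0.55, -2.86, 0.01 and -3.08 on replicates 1 to 5. Both arrays with the mutant in Cy3 were low, and they did not overlap the 3 in Cy5. How many of all probes separate in this way was not counted. The mutant coefficient of probe 2522 was -1.39 ± 0.35 (SE, 5 arrays; limma, unadjusted p 0.00933, adjusted p 0.999) beside a dye coefficient of 1.58 ± 0.35. The other probes had coefficients nearer 0. Probe 9162 stayed between -0.31 and 0.09 and probe 18390 between -0.30 and 0.43, with coefficients of -0.07 ± 0.26 and -0.01 ± 0.27. Probe 18861 read 0.16, -0.94, 0.09, -2.55 and 1.07, for a coefficient of -0.27 ± 0.48.

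Ube2w, which attaches ubiquitin to the amino terminus of proteins, read 0.50, -1.83, -5.05 and 0.26 on replicates 1 to 4 and had no value on replicate 5. Values above and below 0 were equally frequent, and the coefficient of -2.71 ± 0.62 (limma, unadjusted p 0.0105, adjusted p 0.999) stood beside a dye coefficient of 2.35. Ube2f, an E2 for the ubiquitin-like protein NEDD8, went the other way at -1.19, 1.02, 1.27, 1.15 and 4.68. It lay above 0 on 4 of 5 arrays, with a coefficient of 1.65 ± 0.66 (limma, unadjusted p 0.0515, adjusted p 0.999). The coefficient was 0.80 without replicate 5 and 2.50 without replicate 3. Ube2z, which takes ubiquitin from the alternative activating enzyme UBA6, had 3 fitted probes, at -1.25 ± 0.83, -0.10 ± 0.54 and -0.04 ± 0.39. The first of them was low on replicate 3, at -4.97, and ran from -0.71 to 0.50 on the others.

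Other E2 enzymes had coefficients between -0.36 and 0.27. Ube2r2, a partner of cullin-RING ligases, read 0.73, -0.09, -0.29, 0.41 and 0.01, for a coefficient of 0.10 ± 0.28. Ube2n, which builds chains linked through lysine 63 together with a Ube2v partner, read -0.12, 0.47, 1.28, -0.78 and -0.15, for 0.21 ± 0.37. Ube2k, an E2 that builds degradative chains, had fitted probes at -0.36 ± 0.50 and 0.14 ± 0.26. Ube2o, a large enzyme with E2 and ligase activity known from maturing red cells, lay below 0 on 4 of 5 arrays, from -1.26 to -0.14, and at 1.45 on replicate 5. Its coefficient was -0.08 ± 0.40, and 0.39 without replicate 3. Ube2j1, an E2 of the endoplasmic reticulum membrane, stood at 0.27 ± 0.57, Ube2q1 at 0.22 ± 0.45 and Ube2h at -0.20 ± 0.53.

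The Ube2d enzymes, the most widely used partners of RING ligases, fell short of the fit. Ube2d3 had values on replicates 3, 4 and 5, of -2.56, -0.07 and -2.99. Ube2d2a had a value of 3.09 on replicate 5 only. Ube2c, the E2 of the anaphase-promoting complex, was measured on replicates 2 and 3, at -0.24 and -0.31.

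RING ligases of membranes included the lowest value of the family, -6.30 for Rnf26. Rnf167, a protease-associated transmembrane ligase of endosomes and lysosomes, read -1.53, -1.14, -3.19 and 0.11 on replicates 1 to 4. Its coefficient was -2.02 ± 0.49 (SE, 4 arrays; limma, unadjusted p 0.0129, adjusted p 0.999), with 0 of its 4 values at a simple ratio. Of the same kind, Rnf133 stood at 0.65 ± 0.39 and the 2 fitted probes of Rnf130 at -0.62 ± 0.58 and 0.35 ± 0.47. Rnf139 (TRC8), a sterol-sensing ligase of the endoplasmic reticulum, had 2 fitted probes. One read -2.19, -4.72, -3.23 and 1.08 on replicates 1, 2, 3 and 5, for a coefficient of -2.26 ± 0.91, and was low on 3 of 4 arrays. The other read -4.51, -0.06, 0.21 and 1.34 on the same arrays, for -0.76 ± 0.85. Rnf26, also a ligase of that membrane, ran from -6.30 on replicate 2 to 0.57 with 1 probe and from -1.19 to 1.67 with another.

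Rnf146, the ligase that acts on proteins carrying poly(ADP-ribose), read -1.16, -2.88, -1.02 and -0.97 on replicates 2 to 5. All 4 values lay below 0, 3 of them at a simple ratio, and the coefficient was -1.51 ± 0.45 (limma, unadjusted p 0.0260, adjusted p 0.999). A further probe of Rnf146 read -1.22 and -5.33 on replicates 1 and 4, and the remaining one 1.09, 3.41 and 0.35 on replicates 1, 3 and 5. The first of these was on the same side as the fitted probe and the second on the opposite one, and neither could be fitted.

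RING-between-RING ligases had values on both sides. Rnf31 (HOIP), the catalytic subunit of the complex that makes linear chains, read -1.91, 0.51, 3.96 and -1.54 on replicates 1 to 4, for a coefficient of 1.49 ± 0.63 and a larger dye coefficient of -2.47 ± 0.63. Rnf19b stood at 1.51 ± 0.68, with 4.24 on replicate 1 and 1.24 or less on the others. Rnf14, known as a coactivator of the androgen receptor, varied little with its fitted probe, from -0.40 to 0.43. Its probes 18695 and 5493, with values on replicates 2, 3 and 4 only, were not fitted. They read -2.917, -0.145 and 3.785, and -2.166, 3.04 and -0.667. Rnf144a had fitted probes at -0.10 ± 0.30 and -0.94 ± 0.59, and Rnf216 stood at -0.05 ± 0.32. Of the 7 fitted probes of this kind, 3 lay above and 4 below 0, with a median of -0.05.

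Rnf40 and Rnf20 pair to ubiquitinate histone H2B, together with the E2 Ube2a or Ube2b. Rnf40 read -0.57, 0.63, 0.04, 0.64 and 0.50, above 0 on 4 of 5 arrays, for a coefficient of 0.25 ± 0.33. Rnf20 read 3.98, -1.60, -1.11 and -2.89 on replicates 1 to 4, high on 1 array and low on the others, for -0.64 ± 1.49. Ube2b had fitted probes at -0.16 ± 0.28 and 0.06 ± 0.43. Rnf2, the ligase of Polycomb complex PRC1 for histone H2A, stood at 0.05 ± 0.53, with 2.23 on replicate 1 and -0.93 to -0.14 elsewhere. On the removing side, the H2A deubiquitinase Usp16 had fitted probes at 0.05 ± 0.36 and 0.12 ± 0.36, and Usp3 stood at 0.57 ± 0.90. Usp3 was low on replicates 1 and 2, at -3.24 and -2.13, and high on replicates 3, 4 and 5, at 1.22, 2.26 and 3.13. The histone group as listed had 9 fitted probes of 7 genes, not all of them named in this paragraph. Of the 9 coefficients, 6 lay above and 3 below 0, with a median of 0.05, where 53.9% of all probes lay above 0.

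Further RING ligases lay on both sides of 0. Rnf141 lay above 0 on 4 of 5 arrays, at 0.51, 0.05, 0.60, -0.80 and 0.14, for a coefficient of 0.15 ± 0.32. Rnf10, which ubiquitinates ribosomal proteins, read 0.79, 0.09, -0.26, 0.03 and 0.02, for 0.09 ± 0.28. Rnf41 (NRDP1), a ligase of ErbB receptors, had 3 fitted probes, all above 0, at 0.19 ± 0.45, 0.66 ± 0.65 and 0.80 ± 0.60. Rnf8, of the DNA damage response, stood at -0.35 ± 0.70 and Rnf186, a ligase of the endoplasmic reticulum, at -0.81 ± 0.53. The HECT ligase Ube3b had 2 fitted probes. The first read 0.30, 0.99, -0.29 and 0.48 on replicates 1, 2, 3 and 5 (0.37 ± 0.36), and the second -1.81, 2.61, -2.95 and -2.40 (-1.14 ± 0.82). Both had the same sign on 2 of 4 arrays. The coefficient of the second was -0.034 without replicate 1 and -2.24 without replicate 2, and that of the first ran from 0.18 to 0.56 with 1 array left out. Ube3a, the ligase affected in Angelman syndrome, had values on replicates 2, 4 and 5 only, of -0.47, 2.63 and 5.64.

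Of the deubiquitinases, Usp47, which acts in DNA base excision repair, was the only family probe with 1 sign on all 5 arrays. It read -0.02, -0.97, -3.95, -0.01 and -1.08, so that 2 arrays lay almost at 0 and 1 far below. Its coefficient was -1.42 ± 0.50 (limma, unadjusted p 0.0345, adjusted p 0.999), and 4 of its 5 values lay at a simple ratio. The coefficient was -0.71 without replicate 3 and -2.14 without replicate 5. Another probe of Usp47 read 0.51, -0.04, -0.29, -0.61 and 0.26, for -0.03 ± 0.31. That 1 of 48 family probes kept a sign on all 5 arrays compares with 5.99% of the 6364 such probes on the whole array.

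Usp37, which stabilises cyclin A, read 0.96, 1.38, 1.79 and 0.21 on replicates 1, 3, 4 and 5 with probe 11612. All 4 values lay above 0, the lowest of them near it, for a coefficient of 1.08 ± 0.39 (limma, unadjusted p 0.0486, adjusted p 0.999). Its other fitted probes lay below 0, at -1.07 ± 0.61 and -0.21 ± 0.74, and the average of the 3 probes stood at -0.19. Usp7, the deubiquitinase of p53 and its ligase Mdm2, gave opposite values as well. Its probe 14427 read -3.62, -0.84, -0.60 and -0.77 on replicates 1, 2, 3 and 5 (-1.46 ± 0.57), below 0 on all 4, and its coefficient was -0.76 without replicate 1. Probe 18534 read 1.18, 1.13, 1.22, 0.61 and -1.45 (0.43 ± 0.46), above 0 on 4 of 5, with coefficients of -0.24 without replicate 3 and 1.09 without replicate 5.

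Usp15, which acts on TGF-beta receptor signalling, was the most even of the genes with 3 or more fitted probes. Its probes stood at 0.10 ± 0.31, 0.25 ± 0.31 and 0.35 ± 0.33, and each of them ran below 0 on at least 1 array. Usp42 had the highest coefficients among the deubiquitinases, at 1.497 ± 0.715 and 1.743 ± 0.885. Its first probe read -0.15, -2.57, 0.36 and 3.78 on replicates 1, 2, 4 and 5, and its second -1.78, 1.88, 1.06 and 5.80 on replicates 1, 3, 4 and 5. Both were highest on replicate 5, and their dye coefficients, -2.28 and -2.10, were larger in size. Usp19, anchored in the endoplasmic reticulum, lay below 0 on 4 of 5 arrays, at 0.28, -0.03, -0.11, -0.54 and -0.36 (-0.17 ± 0.28). Usp5, which takes apart free ubiquitin chains, read 0.76, -0.26, 0.03, -0.12 and 0.20 (0.12 ± 0.30). Usp30, of the mitochondrial outer membrane, stood at 0.38 ± 0.47, Usp10 at 0.44 ± 0.64 and Usp8, of endosomal sorting, at 0.08 ± 0.36. Usp53, a tight junction gene linked to cholestasis in humans, read -3.51, -1.51, 0.86 and -2.50 on replicates 1 to 4 (-0.83 ± 0.53).

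Many genes were read by more than 1 probe. Of the 17 genes with at least 2 fitted probes (40 probes), 9 had coefficients of 1 sign. The share over all such genes of the array was not counted, so the 9 cannot be read as particular to the family. The gap between a gene's highest and lowest coefficient had a median of 0.96 and ran from 0.07 for Usp16 to 2.15 for Usp37. The median SE of a single fitted member probe was 0.44, and no gap was tested. A value for a gene with a single probe carries no such check, and 70 of the 100 genes have 1 probe.

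**Figure D3:**
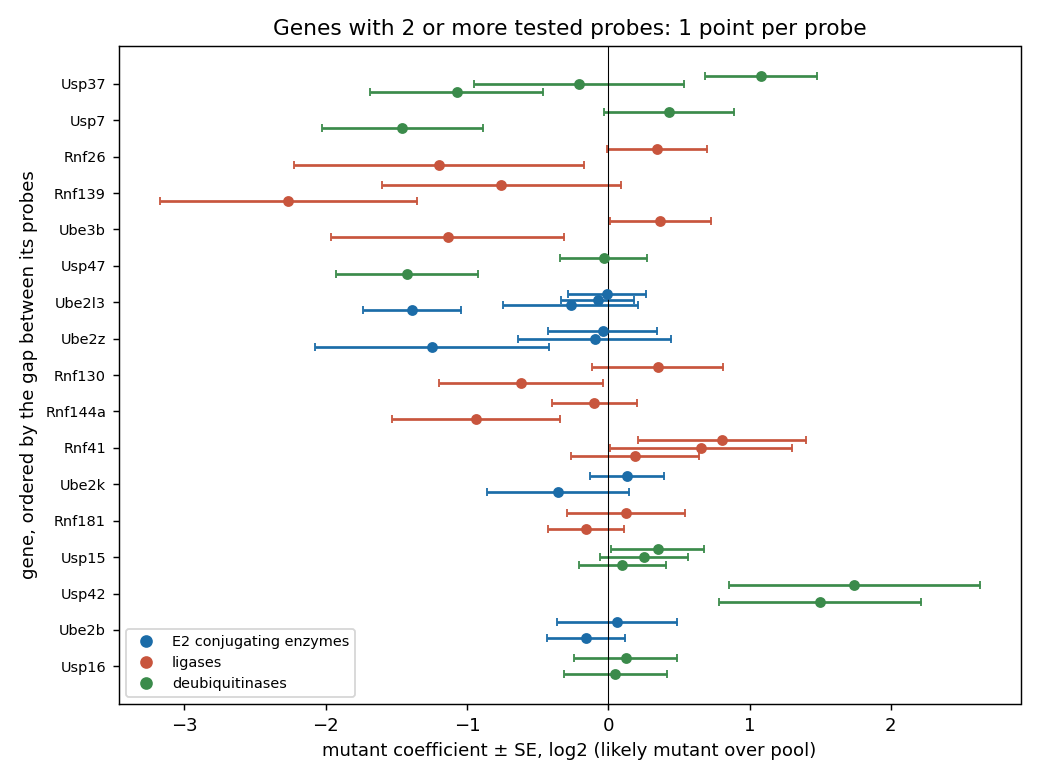
Mutant coefficients (log2, likely mutant over pool) with their SE for the 17 family genes that have at least 2 fitted probes, 1 point per probe, ordered by the gap between the probes of a gene. The probes of Usp16 differ by 0.07, whereas those of Usp37 differ by 2.15 and lie on both sides of 0.

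In 51 of the 86 fitted probes (59.3%) the dye coefficient exceeded the mutant coefficient in size, as it did in 52.9% of all probes fitted. It is the mean over the Cy5 arrays minus the mean over the Cy3 arrays, divided by 2. limma called 0 of the 86 for it (lowest adjusted p 0.462), and 0 of all 11300 (0%). At an unadjusted p under 0.05 there were 7, or 8.14%, beside 7.38% of all probes. These were Ube2l3 (probe 2522), Ube2w and Rnf26 above 0, and Rnf31, Usp54, Usp42 and Usp53 below, with array-wide shares of 1.49% and 5.89%. Usp54 read -2.41, -0.27 and -2.45 on the Cy5 arrays (replicates 1, 2 and 4), whereas the swapped arrays gave 1.420 and 1.696. The 2 orientations did not overlap, but the share of all probes that separate in this way was not counted. The dye coefficient of Usp54, named for its low dye p, was -1.63 ± 0.44 and its mutant coefficient -0.07 ± 0.44. Usp10 had the lowest p above 0 among the deubiquitinases, at 1.59 ± 0.64, and 0.93 without replicate 5.

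Variation over the arrays differed widely between probes. Among the 48 probes on all 5 arrays, the median SD over arrays was 0.75, against 0.71 for all such probes. It was 0.89 for E2 enzymes, 0.61 for ligases and 0.69 for deubiquitinases. An SD under 0.5 was found for 13 probes of 12 genes (27.1%, against 32.6% of all), and the choice by spread itself keeps their values and coefficients small. They were 2 of Ube2l3 and 1 each of Ube2b, Ube2r2, Rnf10, Rnf14, Rnf144a, Rnf181, Usp5, Usp15, Usp19, Usp38 and Usp47. Their values lay between -0.93 and 0.79 and their coefficients between -0.17 and 0.15. Usp38 read 0.27, 0.26, -0.05, -0.13 and 0.39, and Rnf181 read 0.27, 0.14, -0.39, -0.36 and -0.27 with probe 11115. The other fitted probe of Rnf181, 1524, ran from -2.166 to 1.325, with an SD of 1.41 and a coefficient of 0.13 against -0.16. At the other end, probes of Ube2z, Rnf11, Usp3 and Rnf26 had an SD of 2.26 or more, and Rnf11 reached 4.84 on replicate 5 from -1.69 on replicate 1.

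**Figure D4:**
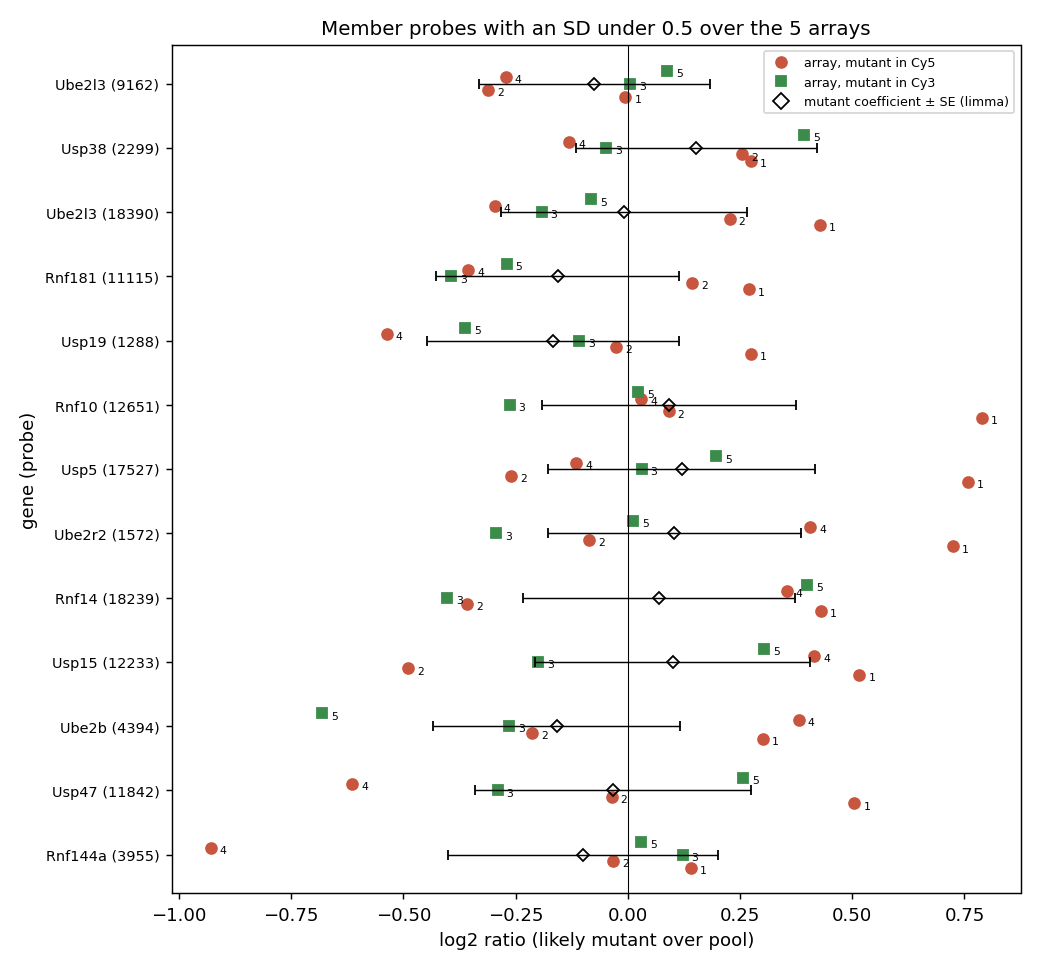
Log2 ratios (likely mutant over pool) on each array for the 13 family probes with an SD under 0.5 over the 5 arrays, ordered by SD; circles are arrays with the mutant in Cy5, squares arrays with the mutant in Cy3, small digits the replicate, and diamonds the mutant coefficient with its SE. Replicate 1 is the highest point for 10 of the 13 probes.

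Other genes of the ubiquitin system, on a list of 100 symbols, had 106 probes of 61 genes, of which 50 probes of 36 genes were fitted. limma called 0 of them, and 28 coefficients lay above and 22 below 0 (median 0.09, against 0.04 for all probes). At an unadjusted p under 0.05 there were 3 of the 50 above and 1 below 0, where the array-wide shares were 2.35% and 1.81%. Otud5, a deubiquitinase of another fold, read -0.02, 0.90, 1.74 and 4.16 on replicates 1, 2, 4 and 5, for a coefficient of 2.52 ± 0.50. The HECT ligase Herc2 was above 0 on all 5 arrays, at 0.61, 1.09, 2.27, 2.54 and 0.72 (1.45 ± 0.44), and a further probe of it stood at 0.37 ± 0.38. Nedd4l, a HECT ligase of ion channels, ran from -0.53 to 2.57 (1.10 ± 0.34). Btrc, the F-box protein that recognises beta-catenin, was below 0 on all 4 arrays with a value, from -2.41 to -0.89 (-1.53 ± 0.49). For Btrc, replicate 3 was the only array with the mutant in Cy3. Vcp, the segregase that extracts ubiquitinated proteins, lay above 0 on all 5 arrays, from 0.05 to 0.65 (0.27 ± 0.27). The limma adjusted p was 0.999 for each of these genes. Of all probes measured on 5 arrays, 5.99% kept 1 sign.

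Markers of liver cell types and of other tissues were read on the same arrays. Hepatocyte markers had 7 of 9 fitted probes below 0 (median -0.56) and erythroid markers 9 of 9 above 0 (median 0.27), where 53.9% of all probes lay above 0. The 9 erythroid probes stand for 4 genes, and 5 of them are repeats of Hba-a1, while the 9 hepatocyte probes stand for 7 genes. Fitted probes of the other lists, above and below 0, were 1 and 3 for macrophages, 3 and 0 for lymphocytes, 2 and 2 for endothelial cells, 1 and 5 for stellate cells, 4 and 0 for bile duct and 0 and 2 for pancreas. Interferon response had 1 above, and cell cycle genes 1 above and 1 below. The 6 stellate and the 4 bile duct probes stand for 3 genes each, with repeats of Col1a2 and Epcam. Coefficients of the Col1a2 probes ran from -0.15 to 0.29. limma called 0 probes of these lists, and their part in the values of the ubiquitin enzymes was not tested.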

How the data were processed

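The authors deposited log2 ratios, 1 per probe and array, from 2-colour cDNA arrays. Scanner, background correction and normalization: not given in the sources used here. Between 20.1% and 29.6% of an array's values had the form of 1 constant per array plus the log of a ratio of whole numbers up to 20. The log base was read from this form. Missing values made up 21.9% to 33.3% of an array's probes after values over 12 in size, read as codes, were set to missing (3 in the family). Codes were positive with the mutant in Cy5 and negative in Cy3, so the ratios of the swapped arrays were taken to have been inverted already. Were they not inverted, the dye coefficient would stand in place of the mutant coefficient. Over all probes, Pearson's r ran from -0.26 to -0.05 between arrays of opposite orientation and from -0.02 to 0.11 within one. More probes had an unadjusted p under 0.05 for dye (7.38%) than for mutant (4.16%). Neither value settles whether the ratios were inverted. The number of unused columns was 0.

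Dyes are per the labels. The model (limma version 3.58.1 in R 4.3.3; lmFit, eBayes) had a mutant intercept plus a dye term. A probe entered with values on 4 or 5 arrays that included both orientations, and p-values were Benjamini-Hochberg adjusted over all 11300. The prior added 2.24 degrees of freedom. Gene symbols come from the platform's annotation table, which can be old. The number of arrays limits the precision.

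Named were, per class, up to 4 probes of lowest p on each side with the coefficient's sign on at least 4 arrays, the 3 of lowest SD, 1 of lowest dye p on each side, every fitted Ube3 or Ube4 probe, and members of textbook role. Members, lists and role groups were chosen with earlier results of these data known; probes at an unadjusted p under 0.05 and those of the extremes were named after their values were seen. Alternatives were each array left out, centring, scaling, other filters, no dye term, array weights, and other treatments of codes, simple ratios and repeated probes.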

Additional observations from a re-analysis of the deposited data

Results flagged for a closer look

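Of the 86 fitted member probes, 8 had 1 array standing apart from the others by more than the 95% limit of Dixon's test. For normally distributed values, chance flags about 1 in 20 such groups. The share over all fitted probes of the array was not counted, so the 8 cannot be read as particular to the family. The array apart was replicate 1 for 3 probes, replicate 3 for 3, replicate 4 for 1 and replicate 5 for 1. The class medians and shares on the arrays gave 0 cases in 6.

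Usp4 stood at -4.66 on replicate 1, against -0.59 to 0.05 on the others. The Usp7 probe 14427 stood at -3.62 on replicate 1, against -0.84 to -0.60. Its probe 18534 stood at -1.45 on replicate 5, against 0.61 to 1.22. Usp47 stood at -3.95 on replicate 3, against -1.08 to -0.01. Ube2z stood at -4.97 on replicate 3, against -0.71 to 0.50, and Rnf146 at -2.88 on replicate 3, against -1.16 to -0.97. Rnf144a stood at -0.93 on replicate 4, against -0.03 to 0.14. Rnf2 stood at 2.23 on replicate 1, against -0.93 to -0.14.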

How the results depend on the processing

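In every alternative, 0 members were called. With 1 array left out, probes needed values on at least 3 arrays. Members at an unadjusted p under 0.05 then numbered 1 to 5 higher and 1 to 9 lower, out of 92 to 104 fitted. The number fitted also changed with the other settings, from 43 without values at simple ratios to 132 with no filter. Array-wide shares were not counted for any alternative. On the higher side there were 2 with arrays centred and scaled, 3 with no filter, and 0 without values at simple ratios or with coded values kept. On the lower side there were 2 with values on all 5 arrays, 1 with no dye term, 2 without values at simple ratios and 3 with the probes of a gene averaged. The median coefficient ran from -0.12 to 0.089 for E2 enzymes, -0.05 to 0.11 for ligases and 0.02 to 0.23 for deubiquitinases with 1 array left out.

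The medians and shares above 0 on single arrays were less stable. Centring each array on its median gave E2 medians of 0.073, -0.27 and -0.33 on replicates 1, 4 and 5 (shares 52.2%, 37.0% and 33.3%), and deubiquitinase medians of 0.11 and -0.076 on replicates 1 and 5 (52.5% and 43.2%). Scaling as well gave 0.077 and -0.37 for E2 on replicates 1 and 5, 0.11 and -0.085 for deubiquitinases, and the same shares. Averaging probes of a gene gave -0.48 for E2 and -0.47 for deubiquitinases on replicate 1, 0.048 for deubiquitinases on replicate 4, and E2 shares of 35.7%, 35.3% and 40.0% on replicates 1, 3 and 5. Without values at simple ratios the E2 medians were 0.18 and -0.38 on replicates 2 and 4, with shares of 33.3%, 38.9% and 50.0% on replicates 3, 4 and 5, and 64.5% of deubiquitinases lay above 0 on replicate 5. With Ube2f and Ube2z left out, as enzymes that serve NEDD8 or UBA6, the E2 median was -0.14 on replicate 2 (42.9%), and the share 47.8% on replicate 4. With members on all 5 arrays, E2 medians were 0.16, 0.23 and -0.27 on replicates 1, 2 and 4 (53.8% above 0 on replicates 1 and 2), the ligase median -0.36 on replicate 4 (36.8%), and the deubiquitinase medians 0.27 and -0.26 on replicates 1 and 2 (68.8% and 25%, with 68.8% on replicate 5). The cause was not tested.

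The mean difference of E2 enzymes minus ligases ran from -0.19 to 0.026 with 1 array left out, turning sign without replicate 5, and was 0.026 with members on all 5 arrays. E2 enzymes minus deubiquitinases ran from -0.235 to -0.11 with 1 array left out and from -0.19 to -0.13 with the other settings. Ligases minus deubiquitinases ran from -0.19 to -0.034 with 1 array left out and was -0.022 with probes of a gene averaged. Among single probes, signs turned for Ube2o (-0.56 to 0.39 with 1 array left out), Rnf141 (-0.002 to 0.33), Rnf10 (-0.030 to 0.16) and Usp7 probe 18534 (-0.24 to 1.09). With probes of a gene averaged, Usp7 stood at -0.38, Usp37 at -0.19, Ube3b at -0.38 and the dye coefficient of Rnf26 at -0.70. The differences between class medians use no model, so the probe filter, dye term and array weights gave them no value. No paired analysis was possible because the study has 1 group, set against 1 pool.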

Other observations

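Family members measured on all 5 arrays and those measured on fewer differed most on replicate 1. There the 48 probes with a full set of values had a median of 0.15, and the 67 values of the remaining probes a median of -0.81. Over all probes of the array the same medians were 0.11 and -0.59. On replicate 4 the order was turned, at -0.12 for the family probes on all 5 arrays and 0.11 for the remaining ones (-0.09 and 0.46 over all probes). On replicate 5 the family medians were 0.18 and 0.21 (0.10 and 0.41 over all probes).

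Among the 13 least variable family probes, replicate 1 held the highest value of 10 (76.9%) and a median of 0.43. These were probes of Ube2l3, Ube2r2, Rnf10, Rnf14, Rnf144a, Rnf181, Usp5, Usp15, Usp19 and Usp47. Over the 2077 probes of the array with an SD under 0.5, replicate 1 held the highest value of 46.5% and a median of 0.24, although the median of all its probes, -0.19, was the lowest of the 5 arrays.

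Over all probes, arrays of the same dye orientation had Pearson's r of 0.09 (replicates 1 and 2), 0.03 (2 and 4), -0.02 (1 and 4) and 0.11 (3 and 5). Arrays of opposite orientation had r from -0.26 to -0.05. In the family, replicates 3 and 5 had r of 0.20 over 84 probes and replicates 1 and 5 r of -0.24 over 94. These are correlations across probes that share the arrays and the wild-type pool, and they are given as a description.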
